A study of Mus musculus with 10 samples.

Results

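The comparison described here asks what remains of a T cell's response to the cytokine interleukin-2 (IL-2) when lactate dehydrogenase (LDH) is inhibited. It sets cells given IL-2 together with an LDH inhibitor (IL-2 + LDHi) against cells given no cytokine, and rests on 4 of the study's 10 RNA-seq libraries, 2 in each group, chosen by their labels. The cells were CD8+ T cells isolated with a kit from the spleens of C57BL/6N mice; the age and sex of the mice are not given in the sources used here. Every group was first activated for 48 h with anti-CD3 fixed to the plate and anti-CD28 in solution, then pooled, washed, plated again and cultured for another 48 h. During that second culture 1 group received no cytokine and the other human IL-2 at 100 IU/ml. The inhibitor, NCI-737, was used at 1 µM in the IL-2 + LDHi group, where it was present from activation onwards and was added again with IL-2. Cells without cytokine never received the inhibitor, and no group received it without a cytokine, so the effects of the cytokine and of the inhibitor cannot be told apart from this comparison alone.

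For reference, 2 other values are printed beside many of the results: that of IL-2 without inhibitor (2 libraries) against no cytokine, and the direct difference between IL-2 + LDHi and IL-2. The first shares its no-cytokine libraries, and the second its IL-2 + LDHi libraries, with the main comparison, so the 3 values are set side by side and no overlap between them was computed. The remaining 4 libraries, from cells given IL-21 with or without the inhibitor, contribute only to the shared estimate of the spread. The labels do not say whether the 2 libraries of a group came from separate mice or cultures, so the p-values reflect no more than the scatter among these libraries, and that scatter may be technical.

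As background, IL-2 binds a receptor made of the α chain Il2ra, the β chain Il2rb and the common γ chain, and its JAK kinases phosphorylate the transcription factor STAT5. In activated CD8+ T cells this drives division, survival, cytotoxic effector genes and a switch to aerobic glycolysis, in which pyruvate is reduced to lactate. LDH, a tetramer of Ldha and Ldhb subunits, carries out that reduction and regenerates the NAD+ that glycolysis consumes.

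STAT5 dimers bind the letters TTCNNNGAA, in which N is any base, and the gene list used for the IL-2 response was drawn up around known IL-2 and STAT5 targets. In RefSeq promoters of build GRCm38.p6 (250 bases before to 50 after the annotated start, both strands searched), 5 of the 22 list members with a promoter in the table held these letters, or 22.7%, against 2582 of 27025 genes, or 9.55%. A match is a description of the letters and not evidence of binding. The matching stretches are shown because the 5 genes span the outcomes found below, from Cish and Lta, which rose, to Tnfrsf9 and Socs3, which were not called. Each is printed 5′ to 3′ on the gene's strand, with the match in capitals. That of Cish, a STAT5-induced inhibitor of cytokine signalling, lies at chr9:107296654-107296683 on the plus strand, with matches that begin 1 and 12 bases into the transcript. Those of the costimulatory receptors Tnfrsf9 (4-1BB) and Tnfrsf18 (GITR) lie at chr4:150927853-150927881 and chr4:156026213-156026241 on the plus strand, 136 and 99 bases before the start. That of Socs3, another inhibitor of cytokine signalling, lies at chr11:117969502-117969530 on the minus strand, 154 bases before the start. For Lta, which encodes the cytokine lymphotoxin α, the whole promoter up to the start is given, chr17:35205352-35205601 on the minus strand, with matches 152 and 16 bases before the start.
Cish: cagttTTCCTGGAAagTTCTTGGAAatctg
Tnfrsf9: caacagctgaTTCCAAGAAacccttcaga
Tnfrsf18: tgctctacacTTCACAGAAggcctttaca
Socs3: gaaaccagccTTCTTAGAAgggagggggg
Lta: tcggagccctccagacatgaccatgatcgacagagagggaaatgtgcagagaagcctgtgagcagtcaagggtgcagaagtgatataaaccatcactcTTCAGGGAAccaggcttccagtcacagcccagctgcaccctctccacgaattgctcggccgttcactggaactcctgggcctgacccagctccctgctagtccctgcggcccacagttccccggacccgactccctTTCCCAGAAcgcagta

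Library depth, as implied by the authors' RPKM values and read counts, ran from 45138204 to 62848913 reads over the 10 libraries. Levels are in RPKM, reads scaled to transcript length and library size, which allows genes of different length to be compared. Each pair of values gives replicates 1 and 2, and where 3 pairs follow a gene they stand for no cytokine, IL-2 + LDHi and IL-2 in that order. Differences are log2 fold changes from edgeR's quasi-likelihood test on the read counts, and a gene is called higher or lower at an adjusted p under 0.05. Of 14357 genes tested, 24.2% were called between IL-2 + LDHi and no cytokine: 1559 higher (10.9%) and 1913 lower (13.3%), with a median log2 fold change over all genes of -0.03. At least 2-fold changes were fewer, 539 higher (3.75%) and 1265 lower (8.81%). Counts of list members called, given below, are to be read beside the 24.2% of all genes called. The cholesterol synthesis (16%), fatty acid synthesis (30%) and fatty acid oxidation (17.4%) lists, for instance, lie near it or below. The 2 libraries of IL-2 + LDHi lay close together: the SD of their log2 difference over genes was 0.302, against 0.488 between the no-cytokine libraries. The 2 IL-21 libraries, which enter the shared spread, lay furthest apart, with an SD of 0.760. The counts moved with single libraries. Without IL-2 + LDHi replicate 1 or 2, which leaves an arm of 1 library whose spread is assumed to match the other groups, 718 or 673 genes were called higher and 882 or 885 lower. Without no-cytokine replicate 1, 1024 were called higher, and without 1 or the other IL-21 library, which did not enter the contrast but did enter the spread, 2379 or 2389.

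**Figure D1:**
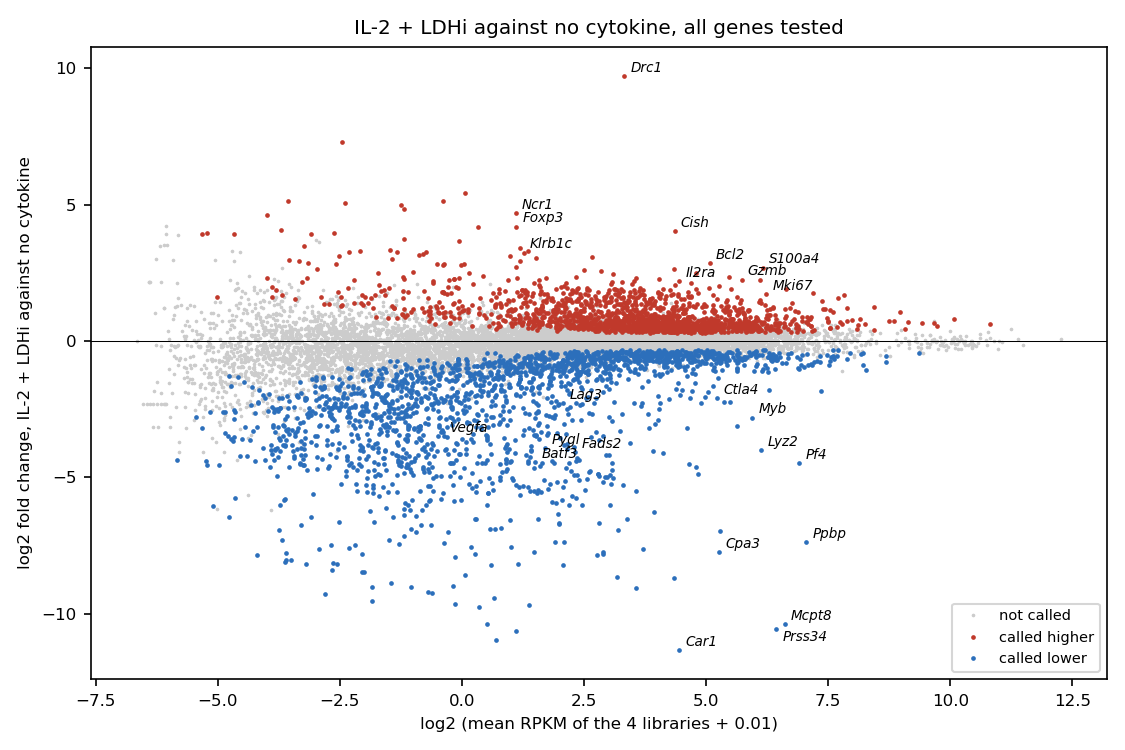
Each point is 1 of the 14357 genes tested. The x axis is the log2 mean RPKM of the 4 libraries plus 0.01, and the y axis the log2 fold change of IL-2 + LDHi against no cytokine, with called genes in red (1559 higher) and blue (1913 lower). Car1, Prss34 and Mcpt8, genes of other blood cells, are among the lowest points, and Drc1 is the highest with a log2 fold change of 9.72.

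Markers of other blood cells led the genes called lower, and are given before the T cell genes. Among the 12 genes with the largest falls were the basophil proteases Mcpt8 and Prss34, the mast cell and basophil genes Fcer1a and Cpa3, the eosinophil granule protein Prg2 and the neutrophil protease Ctsg. Mcpt8 stood at 133 and 257 RPKM without cytokine, 0.152 and 0.149 with IL-2 + LDHi and 1.20 and 1.27 with IL-2. Car1, an erythroid carbonic anhydrase, gave 4974 reads over the no-cytokine libraries and 2 over the IL-2 + LDHi libraries, a ratio of 2861 with a 95% counting interval of 792 to 23630. S100a8, a neutrophil calcium-binding protein, gave 204 and 0 reads, at least 78.2-fold lower against a floor of 3 reads over the group. In each of these genes both IL-2 + LDHi libraries lie below both no-cytokine libraries, but the rule that picked them required this. Members of such a list that passed the filter on low counts only through the no-cytokine libraries had to differ, so their counts are a description.

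Summed over all 19 genes found of the granulocyte, mast cell and basophil list, of which Elane, Camp, Retnlg and S100a8 gave 0 reads in both IL-2 + LDHi libraries, the level was 382 and 772 RPKM without cytokine, 5.87 and 6.22 with IL-2 + LDHi and 8.77 and 9.27 with IL-2. Of its 17 tested members, 15 were called lower with IL-2 + LDHi and none higher (none at an unadjusted p under 0.05 either), with a median log2 fold change of -7.61, or -7.23 with the tested Elane and S100a8 set at their bounds. The erythroid, platelet and stroma list summed to 504 and 739, 49.99 and 53.3, and 32.6 and 33.9 RPKM in the same order, with 10 of 11 called lower (median -4.61; 6 without either IL-2 + LDHi library). Macrophage and monocyte markers summed to 305 and 391, 130 and 143, and 136 and 150 RPKM, and 16 of 21 were called lower (median -2.84). With IL-2, 1 of these 21 was higher and 17 lower (median -6.31), and the direct comparison called 12 higher and 2 lower with the inhibitor (median 2.47), although the sums of the IL-2 groups overlap. Dendritic markers summed to 185 and 198, 41.1 and 45.4, and 44.8 and 43.5 RPKM, and 7 of 12 were called lower, or 3 without either IL-2 + LDHi library and 4 without no-cytokine replicate 2; 1 was higher without either IL-21 library. The direct comparison called 6 of the 12 higher and 3 lower. The B cell list (24.8 and 11.9, 12.1 and 10.4, 11.4 and 10.3 RPKM) had 0 of 10 members called by edgeR's test, with 1 lower at an unadjusted p under 0.05 and 1 lower by DESeq2; fits of 3 or 2 groups, or without either IL-21 library, called 1 in each direction. In bulk RNA, fewer cells of a type and less RNA per cell cannot be told apart. The defining genes of the CD8+ label were present throughout: Cd8a stood at 268 and 227 RPKM without cytokine and 288 and 307 with IL-2 + LDHi, with a log2 difference of 0.21 (95% interval -0.12 to 0.54), and Cd3e at 222 and 166 and 193 and 196. Of 24 CD8, CD3 and T cell receptor signalling genes, 2 were called higher and 4 lower (median -0.07). The 2 became 1 without either IL-2 + LDHi library, no-cytokine replicate 2 or any IL-2 or IL-21 + LDHi library, and the 4 became 0 without either IL-2 + LDHi library or no-cytokine replicate 1. The summed level of the 24 was 3572 and 2902 RPKM without cytokine and 3088 and 3211 with IL-2 + LDHi, beside 2826 and 3026 with IL-2. Each single sum of other-cell markers without cytokine was below that of the 24 T cell genes. The lists differ in the number and level of their genes, so the sums do not give shares of cells. In no-cytokine replicate 2, the level of Mcpt8 given above exceeded those of Cd8a and Cd3e. The part of other cells in the falls described below was not tested.

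**Figure D2:**
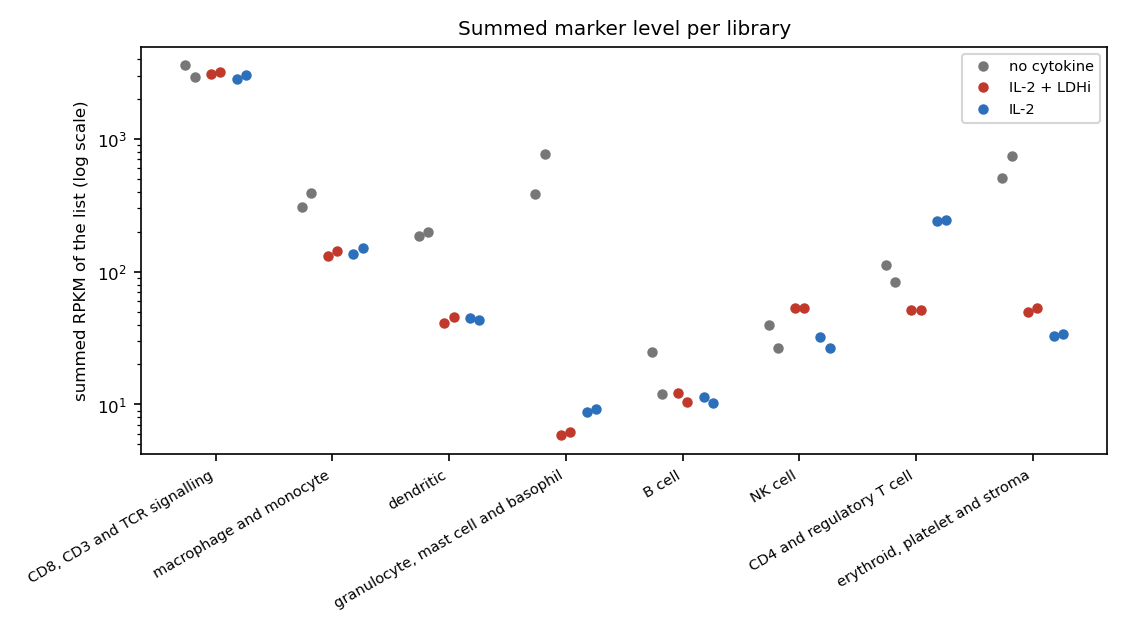
Summed RPKM of each marker list (log axis) in the 2 libraries of no cytokine (grey), IL-2 + LDHi (red) and IL-2 (blue). The granulocyte, mast cell and basophil sum drops from 382 and 772 RPKM without cytokine to 5.87 and 6.22 with IL-2 + LDHi, while the CD8, CD3 and T cell receptor sums of both IL-2 groups overlap the range of no cytokine, those with IL-2 + LDHi (3088 and 3211) above those with IL-2 (2826 and 3026).

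Many targets of IL-2 were higher with IL-2 + LDHi than without cytokine. Of 28 IL-2 and STAT5 targets, 15 rose and none fell, a share of 53.6% beside the 10.9% of all genes called higher, with a median log2 fold change of 0.75 against -0.03 over all genes. This list, like the others, was chosen with earlier results of these data known, so its share is a description. Without IL-2 + LDHi replicate 1 or 2, 11 rose, and over all 10 fits without 1 library 11 to 18. Here and for the cell cycle, interferon, heat shock and shuttle lists below, where no member was called in 1 direction by edgeR's test, none reached an unadjusted p under 0.05 in that direction and DESeq2 called none. With IL-2 alone, 22 rose and 1 fell (median 1.42), where 50.5% of all genes were called, 25.6% higher and 24.8% lower. In the direct comparison of IL-2 + LDHi with IL-2, 3 were higher and 13 lower (median -0.32), where 39.4% of all genes were called, 17.8% higher and 21.6% lower.

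Cish was measured at 2.13 and 2.41 RPKM without cytokine and at 38.4 and 38.7 RPKM with IL-2 + LDHi, a log2 fold change of 4.03 (SE 0.25, adjusted p 2.44e-05). With IL-2 alone it stood at 44.0 and 38.2 RPKM, and the direct log2 difference between the IL-2 groups was -0.13 (95% interval -0.63 to 0.36). Both cytokine groups were thus far above no cytokine, and the inhibitor group lay within the range of the IL-2 group. Bcl2, the anti-apoptotic founder of its family, went from 6.87 and 8.85 to 55.4 and 63.8 RPKM, a log2 fold change of 2.86 (SE 0.17, adjusted p 2.3e-05). It reached 55.2 and 54.0 RPKM with IL-2 alone, and the direct difference was 0.09 (95% interval -0.28 to 0.45). Lta, whose promoter is shown above, rose from 9.11 and 7.08 to 48.1 and 46.0 RPKM (2.48, SE 0.14), against 38.5 and 39.0 with IL-2 alone, with a direct difference of 0.24 (95% interval -0.07 to 0.55). For none of these 3 did the direct comparison pass the test. Bcl2l1, which encodes the survival protein BCL-XL, was at 6.78 and 7.57 RPKM without cytokine, 22.2 and 22.8 with IL-2 + LDHi and 17.9 and 21.1 with IL-2 (direct difference 0.17, 95% interval -0.13 to 0.46). The D cyclin Ccnd3 stood at 47.8 and 47.0, 80.5 and 88.1, and 95.3 and 79.6 RPKM, a log2 fold change of 0.77 with IL-2 + LDHi and 0.87 with IL-2.

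Other targets rose part of the way. Il2ra, the inducible receptor chain and itself a STAT5 target, stood at 8.20 and 6.81 RPKM without cytokine, 35.1 and 37.2 with IL-2 + LDHi and 187 and 194 with IL-2. The rise with IL-2 + LDHi was 2.21 in log2 (SE 0.33, adjusted p 0.00155), that with IL-2 4.65, and the direct difference -2.43 (SE 0.33, adjusted p 0.000602). The 3 groups do not overlap, with IL-2 + LDHi between the others. Socs2, a feedback inhibitor, followed the same order at 1.75 and 2.28, 12.1 and 12.7, and 26.6 and 29.9 RPKM (direct difference -1.23, adjusted p 0.00123). So did Pim1, a STAT5-induced kinase, at 47.3 and 41.7, 85.3 and 84.8, and 119.7 and 128 RPKM (direct difference -0.58, adjusted p 0.00292). The cytokine Lif rose by 3.31 in log2 with IL-2 + LDHi and by 4.65 with IL-2. Il2rb, the receptor's β chain, stood at 127 and 70.2, 182 and 180.1, and 254 and 224 RPKM. Its rise with IL-2 + LDHi was 0.82 (adjusted p 0.0494), and the call was lost in 7 of the 10 fits without 1 library, with adjusted p up to 0.203.

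A last set of IL-2 targets was raised by IL-2 and not called with the inhibitor. These genes were chosen for display after their values were seen. Tnfrsf9 was at 5.91 and 5.35 RPKM without cytokine, 6.63 and 6.65 with IL-2 + LDHi and 169 and 166 with IL-2. Its log2 fold change with IL-2 + LDHi was 0.18 (95% interval -0.17 to 0.53, adjusted p 0.466), against 4.87 with IL-2, and the direct difference was -4.70 (SE 0.17, adjusted p 3.53e-06). Tnfrsf4 (OX40), another costimulatory receptor of the TNF receptor family, stood at 5.85 and 4.89, 5.10 and 4.60, and 37.1 and 36.9 RPKM, with overlap between no cytokine and IL-2 + LDHi. Nfil3, a basic leucine zipper repressor, stood at 2.12 and 2.18, 2.89 and 3.13, and 34.7 and 29.7 RPKM, with a log2 fold change of 0.43 (95% interval 0.07 to 0.78) beside 3.89 with IL-2; it was called higher without 1 or the other IL-21 library. Tnfrsf18 lay between these and the previous set, at 20.6 and 14.7, 31.0 and 32.1, and 121 and 119 RPKM. It was called higher with IL-2 + LDHi (0.78, adjusted p 0.0237), but not without no-cytokine replicate 2 or either IL-2 + LDHi library (adjusted p up to 0.137). Socs3, at 16.1 and 16.3, 19.3 and 22.1, and 12.6 and 12.3 RPKM, was not called against no cytokine with IL-2 + LDHi (0.30, 95% interval -0.05 to 0.64) or with IL-2 (-0.39).

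**Figure D3:**
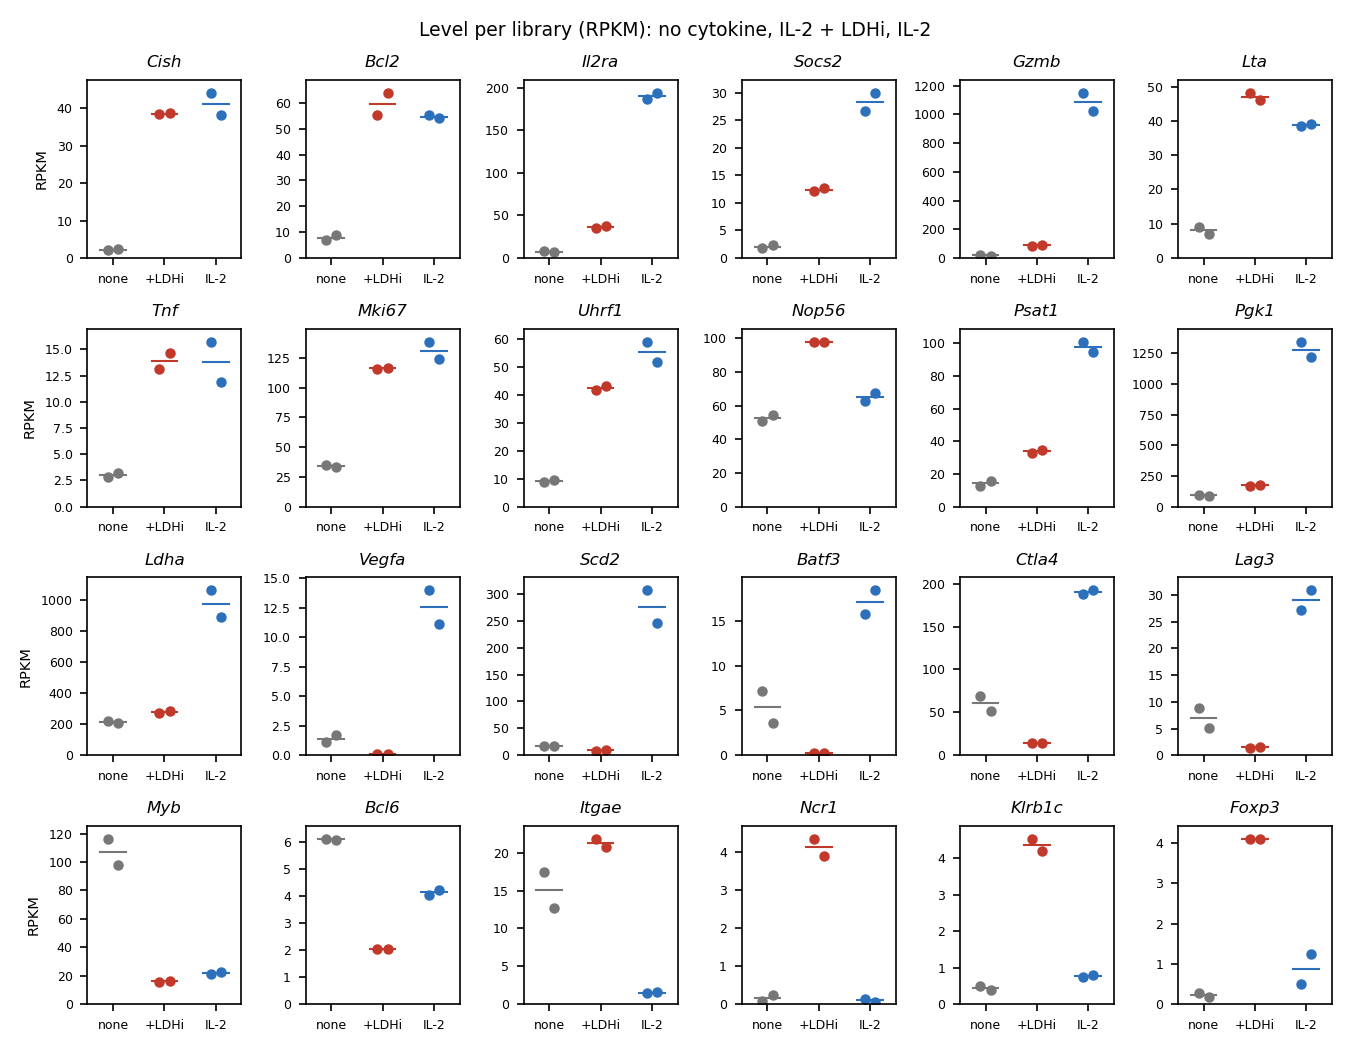
RPKM of 24 genes in each library (points; 2 per group) with the group mean (line), for no cytokine (none), IL-2 + LDHi (+LDHi) and IL-2; each y axis is linear and starts at 0. Cish, Bcl2 and Tnf reach overlapping or adjoining levels in both IL-2 groups. Lta is higher with the inhibitor than with IL-2, without overlap, though that direct difference did not pass the test. Il2ra, Socs2, Gzmb and Psat1 lie between. Vegfa, Batf3, Ctla4 and Lag3 are below no cytokine with the inhibitor and above it with IL-2 alone, and Ncr1, Klrb1c and Foxp3 are highest with the inhibitor.

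Proliferation genes rose almost without exception. Of 36 S phase and DNA replication genes, 33 rose and none fell with IL-2 + LDHi (median log2 fold change 1.45), and of 30 G2 and M phase genes 29 rose and none fell (median 1.70). The counts were 33 to 36 and 28 or 29 in the 10 fits without 1 library. With IL-2 alone the counts were 35 and 29 (medians 1.60 and 2.16). In the direct comparison 10 S phase genes were lower and 1 higher (median -0.27) and 18 G2 and M phase genes lower and none higher (median -0.53). Uhrf1, which maintains DNA methylation at replication forks, stood at 8.95 and 9.68 RPKM without cytokine and 41.7 and 43.1 with IL-2 + LDHi, a log2 fold change of 2.13 (SE 0.11, adjusted p 1.55e-05), and at 58.9 and 51.6 with IL-2. Rrm2, the regulatory subunit of ribonucleotide reductase, was at 14.3 and 13.9, 72.7 and 75.3, and 80.02 and 60.9 RPKM in the same order, with a direct difference of 0.03 (95% interval -0.36 to 0.42). The clamp Pcna was at 76.0 and 94.0, 241 and 248, and 241 and 182 RPKM. For Rrm2 and Pcna the cytokine groups overlap or adjoin, and no cytokine is apart from both.

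The proliferation marker Mki67 stood at 35.4 and 33.1 RPKM without cytokine, 116 and 117 with IL-2 + LDHi and 138 and 124 with IL-2. Its log2 fold change was 1.71 with the inhibitor and 1.92 without, and the direct difference -0.21 (95% interval -0.53 to 0.10) did not pass the test. The mitotic kinesin Kif11, at 12.5 and 14.0, 52.6 and 53.3, and 79.0 and 73.3 RPKM, and the topoisomerase Top2a, at 39.4 and 42.0, 155 and 160.4, and 250.2 and 209.4, were called lower with IL-2 + LDHi than with IL-2 (-0.56 and -0.58 in log2, adjusted p 0.0041 and 0.00494). Both were still more than 3-fold above no cytokine (3.84-fold and 3.72-fold). Of 18 G1 cyclins and CDK inhibitors, 9 rose and 1, Ccnd1, fell (median 0.55); the call of Ccnd1 was lost without any 1 of the 4 libraries compared or either IL-2 library, and 2 fell without either IL-21 library. The kinase Cdk6 rose by 1.05 in log2 and the CDK inhibitor Cdkn2c by 1.74. The p53 targets (22 genes) gave 3 higher and 4 lower (median -0.06), against 11 and 3 with IL-2 (median 0.42), and 3 higher and 10 lower in the direct comparison (median -0.49). In the main comparison, 1 was higher without any 1 of the 4 libraries compared and 5 without either IL-21 library, and none was lower without either IL-2 + LDHi library, 1 and 2 without no-cytokine replicate 1 and 2, and 0 or 1 without an IL-2 or IL-21 + LDHi library. The member with the smallest p, Gtse1, is also known from the G2 phase of the cycle.

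**Figure D4:**
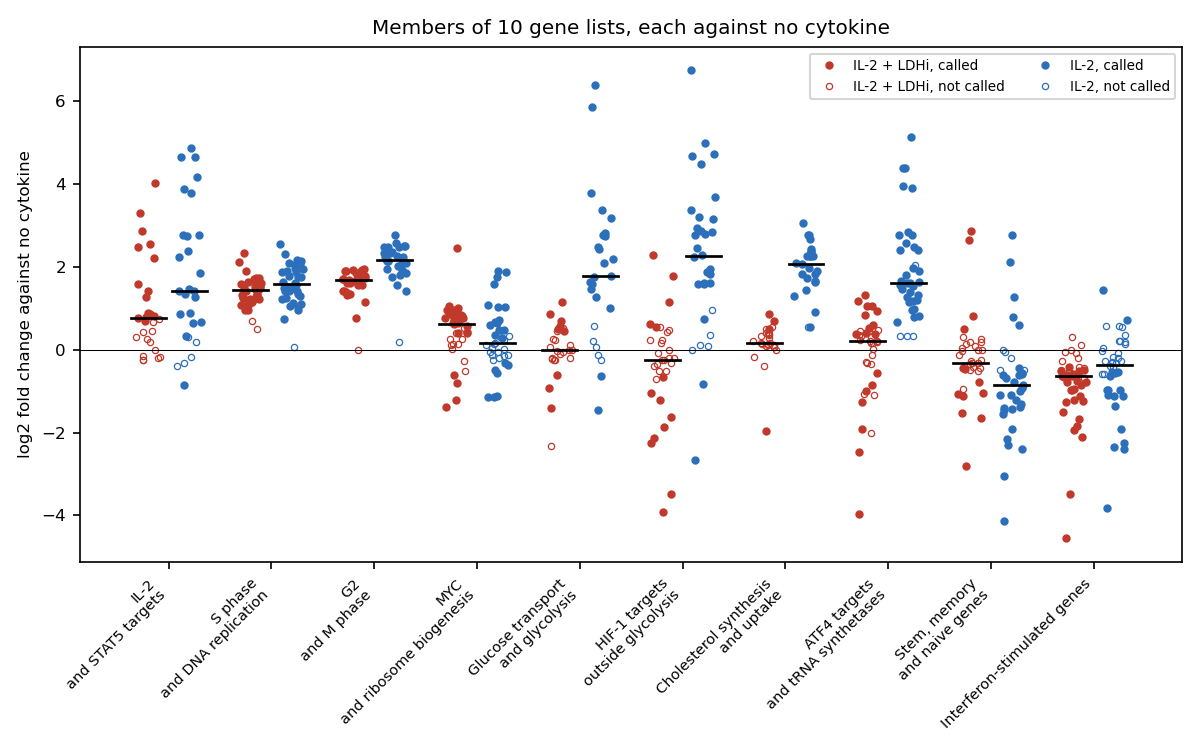
Log2 fold change against no cytokine of every tested member of 10 gene lists, with IL-2 + LDHi (red) and with IL-2 (blue); filled points are called, open points are not, and bars are list medians. S phase and G2 and M phase members rise with both (medians 1.45 and 1.70 with the inhibitor). The medians of the glycolysis and cholesterol lists are near 0 with the inhibitor (-0.01 and 0.17) and near 2 without it (1.77 and 2.07). Their members spread widely, with the inhibitor from -2.32 to 1.15 for glycolysis and from -1.97 to 0.86 for cholesterol.

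A set of ribosome biogenesis genes was higher with the inhibitor than with IL-2 alone. Of 37 genes of MYC and ribosome biogenesis, 23 rose and 4 fell with IL-2 + LDHi (median 0.63), against 15 and 7 with IL-2 (median 0.16), and the direct comparison called 13 higher and 5 lower (median 0.27). Without IL-2 + LDHi replicate 1 and 2, the 23 became 14 and 15, and the 4 became 1. MYC drives ribosome biogenesis genes and is raised by T cell activation. The list also holds Mxd3, of a family that opposes MYC, which rose. Mxd4, of the same family, was called lower (-1.21, and from -1.57 to -0.73 over the alternatives), but not by limma on log2(RPKM + 1) or log2(RPKM + 0.1). Nop56, a core protein of box C/D small nucleolar ribonucleoproteins, stood at 50.9 and 54.5 RPKM without cytokine, 97.8 and 97.5 with IL-2 + LDHi and 62.6 and 67.7 with IL-2. The log2 fold changes were 0.83 (SE 0.10) and 0.29, and the direct difference 0.54 (SE 0.09, adjusted p 0.00207). Polr1b, a subunit of RNA polymerase I, was at 6.19 and 6.23, 11.6 and 12.2, and 5.49 and 6.59 RPKM, and Srm, the spermidine synthase, at 15.3 and 15.4, 30.2 and 34.3, and 17.7 and 21.2 (direct differences 0.94 and 0.69, adjusted p 0.000346 and 0.00283). In these 3 genes IL-2 + LDHi lies above both other groups with no overlap. Myc itself was highest with IL-2 alone, at 28.0 and 29.2, 46.4 and 46.5, and 89.9 and 85.2 RPKM. It was called higher with IL-2 + LDHi (0.64, adjusted p 0.0122), a call lost without no-cytokine replicate 1 or either IL-2 + LDHi library (adjusted p up to 0.073), and lower than with IL-2 (-0.96, adjusted p 0.00106). None of 66 cytosolic ribosomal protein genes was called with IL-2 + LDHi by edgeR's test (median -0.04), 1 was higher and 2 lower at an unadjusted p under 0.05, DESeq2 called 1 higher, and the fits without 1 library called at most 2 in either direction. Heat shock and ER chaperone genes gave 9 of 26 higher and none lower (median 0.36), but 1 and 2 without IL-2 + LDHi replicate 1 and 2, and 2 without no-cytokine replicate 1. The mitochondrial chaperonin Hspd1 kept its call in each of those fits, at 43.9 and 61.3 RPKM without cytokine and 104 and 106 with IL-2 + LDHi.

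The glycolysis, HIF-1 and cholesterol lists, most of whose members rose with IL-2, had medians near 0 with the inhibitor. Of 26 glucose transport and glycolysis genes, 6 rose and 3 fell with IL-2 + LDHi (median -0.01), against 19 and 2 with IL-2 (median 1.77), and the direct comparison called 3 higher and 21 lower (median -1.78). The 6 became 1 without either IL-2 + LDHi library and 2 without no-cytokine replicate 2, and the 3 became 0 without either IL-2 + LDHi library and 1 without either no-cytokine library. Ldha was measured at 220.3 and 208.7 RPKM without cytokine, 273 and 286 with IL-2 + LDHi and 1063 and 891 with IL-2. The log2 fold change with IL-2 + LDHi was 0.32 (95% interval -0.05 to 0.70, adjusted p 0.205), that with IL-2 2.17, and the direct difference -1.85 (SE 0.17, adjusted p 8.44e-05). The 3 groups do not overlap, and the IL-2 + LDHi level is close to that of no cytokine. Ldha was called higher without 1 or the other IL-21 library. Ldhb, the subunit typical of oxidative tissues, stood at 3.75 and 3.14, 6.54 and 6.98, and 4.91 and 4.70 RPKM. It was called higher with IL-2 + LDHi (0.91, adjusted p 0.0215) but not without any 1 of the 4 libraries compared (adjusted p up to 0.124).

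Eno1, the enolase of lower glycolysis, was the glycolytic gene with the smallest p, at 124 and 101 RPKM without cytokine, 248 and 269.9 with IL-2 + LDHi and 817 and 744 with IL-2 (1.15, SE 0.19, adjusted p 0.00289), though a near-identical copy, Eno1b, may share its reads. Pgk1, phosphoglycerate kinase, stood at 96.2 and 87.2, 171 and 178, and 1343 and 1217 RPKM, and its rise with IL-2 + LDHi (0.87) was lost without no-cytokine replicate 2 or either IL-2 + LDHi library (adjusted p up to 0.0614). The direct differences of Eno1 and Pgk1 were -1.63 and -2.92. The hexokinase Hk2 was at 1.93 and 2.79, 2.34 and 2.41, and 21.9 and 11.5 RPKM, with overlap between no cytokine and IL-2 + LDHi and a log2 fold change of -0.05 (95% interval -0.71 to 0.62). The glucose transporter Slc2a1 was at 9.21 and 7.58, 12.2 and 13.1, and 46.4 and 25.9 RPKM and not called with IL-2 + LDHi (0.54, 95% interval -0.02 to 1.09); it was called higher without 1 or the other IL-2 library and in a fit of the 2 groups alone. Slc2a3, a high-affinity glucose transporter, was below no cytokine, at 22.7 and 22.9, 12.3 and 12.6, and 89.4 and 53.4 RPKM (-0.93, adjusted p 0.0171), a call lost without any 1 of the 4 libraries compared (up to 0.104). Among 23 genes of lactate and pyruvate handling, 6 rose and 1 fell (median 0.24); 1 rose without either IL-2 + LDHi library or without no-cytokine replicate 1, 3 rose without no-cytokine replicate 2, and the 1 that fell became 0 to 3 without 1 library. The lactate transporter Slc16a1 was called in each fit but that with a 1.5-fold minimum, at 9.03 and 10.6, 15.4 and 15.7, and 25.6 and 23.5 RPKM.

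Hypoxia-inducible factor 1 (HIF-1) induces glycolytic genes and adaptations to low oxygen, and its targets outside glycolysis had the lowest median of the 43 lists in the direct comparison of the IL-2 groups. Of 32, 5 rose and 9 fell with IL-2 + LDHi (median -0.25), against 25 and 2 with IL-2 (median 2.27), with 1 higher and 26 lower in the direct comparison (median -2.34). Without IL-2 + LDHi replicate 1 or 2, 3 or 2 rose and 4 fell; 2 rose without no-cytokine replicate 1, and 5 fell without no-cytokine replicate 2. The letters ACGTG, the core of the hypoxia response element, were found in the promoters of 19 of 27 list members (70.4%) and of 12 of 24 glycolysis genes (50%), against 5886 of 27025 genes (21.8%). Vegfa, the vascular growth factor, was at 1.10 and 1.70 RPKM without cytokine, 0.140 and 0.118 with IL-2 + LDHi and 14.0 and 11.1 with IL-2. The log2 fold change was -3.48 (SE 0.36, adjusted p 0.000233) with IL-2 + LDHi and 3.15 with IL-2. Pygl, a glycogen phosphorylase, stood at 4.21 and 7.96, 0.423 and 0.412, and 20.2 and 17.2 RPKM. In both genes the inhibitor group is the lowest and the IL-2 group the highest. The no-cytokine levels of both were higher in replicate 2, as was the granulocyte marker sum given above. The part of those cells was not tested. The mitophagy gene Bnip3 was at 3.22 and 3.58, 2.99 and 2.98, and 139 and 78.8 RPKM, not called with IL-2 + LDHi (-0.25, 95% interval -0.80 to 0.31) beside 4.99 with IL-2. Hif1a fell with IL-2 + LDHi, at 46.5 and 46.2, 24.4 and 25.2, and 106 and 105 RPKM (-0.96, SE 0.16, adjusted p 0.00258). Car12, a membrane carbonic anhydrase on the same list, was an exception, at 0.611 and 0.811, 3.24 and 4.01, and 3.44 and 3.38 RPKM (2.29 and 2.245 against no cytokine).

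Most cholesterol and fatty acid synthesis genes likewise rose with IL-2, while the list medians were near 0 with the inhibitor. Of 25 cholesterol synthesis and uptake genes, 3 rose and 1 fell with IL-2 + LDHi (median 0.17). That is 16% called, below the 24.2% of all genes. With IL-2, 24 rose and 0 fell (median 2.07), and in the direct comparison none was higher and 24 were lower (median -1.85). The 3 became 1 and 0 without IL-2 + LDHi replicate 1 and 2, 0 and 5 without no-cytokine replicate 1 and 2, 1 without IL-2 replicate 1 or either IL-21 + LDHi library, and 8 without either IL-21 library; the 1 that fell became 0 without any 1 of the 4 libraries compared or either IL-2 library. Hmgcs1, the synthase at the entry to the mevalonate pathway, stood at 14.1 and 19.5 RPKM without cytokine, 23.8 and 25.8 with IL-2 + LDHi and 116 and 117 with IL-2. Its log2 fold change with IL-2 + LDHi was 0.50 (95% interval 0.07 to 0.94) beside 2.77 with IL-2; it was called without no-cytokine replicate 2 or 1 of the IL-21 libraries. Srebf2, which drives the pathway, was at 39.0 and 32.7, 38.1 and 40.5, and 67.0 and 70.1 RPKM and not called with IL-2 + LDHi (0.08, 95% interval -0.25 to 0.40). Of 20 fatty acid synthesis genes 3 rose and 3 fell (median 0.16; IL-2, 16 and 1, median 1.21), and 8 rose without either IL-21 library. Acaca and Fasn, which make malonyl-CoA and palmitate, rose by 0.80 and 0.85 in log2, and both stayed below IL-2 (-0.80 and -0.46, adjusted p 0.000492 and 0.0486). Desaturases fell below no cytokine, among them Scd2 and Fads2. Scd1 was called lower as well (-1.83, and from -2.24 to -0.49 over the alternatives), but not by limma on log2(RPKM + 1) or log2(RPKM + 0.1). Scd2, the stearoyl-CoA desaturase, was at 17.8 and 17.2, 8.40 and 9.92, and 306 and 246 RPKM, and Fads2, which desaturates polyunsaturated fatty acids, at 6.51 and 12.2, 0.570 and 0.578, and 33.0 and 28.3. Their log2 fold changes with IL-2 + LDHi were -0.996 (SE 0.14, adjusted p 0.00126) and -4.08 (SE 0.44, adjusted p 0.000274). Fads2, like the granulocyte marker sum, was higher in no-cytokine replicate 2, and that part was not tested. Cholesterol efflux genes (9) gave 2 lower and none higher by edgeR's test (none at an unadjusted p under 0.05, and none by DESeq2), and 1 lower without 1 library of any group but IL-21, where 3 were lower.

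ATF4 induces amino acid synthesis and tRNA synthetases, and of 38 such genes 11 rose and 7 fell with IL-2 + LDHi (median 0.22), against 34 and 0 with IL-2 (median 1.61); in the direct comparison none was higher and 36 were lower (median -1.30). Without IL-2 + LDHi replicate 1 or 2, 6 rose and 4 or 3 fell; 7 rose and 4 fell without either no-cytokine library, and 17 rose without either IL-21 library. Members that rose included serine and one-carbon enzymes. Psat1, of serine synthesis, stood at 12.7 and 15.9, 32.8 and 34.9, and 101 and 94.8 RPKM (1.18, SE 0.12, adjusted p 0.000229). Shmt2 and Mthfd2, of the mitochondrial folate pathway, rose by 0.93 and 1.32. Those that fell included Asns, asparagine synthetase, at 2.98 and 3.86 RPKM without cytokine, 1.49 and 1.49 with IL-2 + LDHi and 54.1 and 53.7 with IL-2. Its log2 fold change was -1.25 (SE 0.15, adjusted p 0.000483) with IL-2 + LDHi, 3.96 with IL-2 and -5.22 between the 2. The stress factor Atf3 fell by 2.47 in log2 with IL-2 + LDHi and rose by 2.41 with IL-2. Of 22 amino acid transporters 2 rose and 6 fell (median -0.17; 3 fell without IL-2 + LDHi replicate 1). The 2 were Slc7a5, the leucine transporter, at 8.20 and 10.3, 21.6 and 23.4, and 61.8 and 68.2 RPKM, and the cationic transporter Slc7a1, at 7.33 and 7.54, 15.1 and 14.7, and 16.8 and 21.2. Slc7a8, a neutral amino acid transporter that fell, was at 2.13 and 5.38, 0.134 and 0.232, and 0.0499 and 0.0269 RPKM. Its no-cytokine level was higher in replicate 2, like the granulocyte marker sum given above, and the part of those cells was not tested.

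The medians of the mitochondrial lists were at most 0.36 with IL-2 + LDHi, and their calls were unsteady. Of 70 nuclear-encoded respiratory chain genes, 12 rose (17.1% of them, beside 10.9% of all genes) and none fell with IL-2 + LDHi (median 0.36), with 1 lower at an unadjusted p under 0.05 in edgeR's test and 1 by DESeq2, and 33 rose with IL-2 (median 0.43). The direct comparison of the IL-2 groups called 1 higher and 10 lower (median -0.13). The 12 became 1 and 0 without IL-2 + LDHi replicate 1 and 2, 5 and 2 without the no-cytokine libraries, 6 or 7 without an IL-2 or IL-21 + LDHi library, and 40 without either IL-21 library. DESeq2 called 21 higher, limma on log2(RPKM + 1) 3, and fits of 3 and 2 groups 39 and 28. Ndufa5, of complex I, had the smallest p, at 22.3 and 19.2, 34.1 and 37.8, and 25.5 and 24.5 RPKM (0.73; adjusted p 0.00412, and 0.0519 without IL-2 + LDHi replicate 2). Of 25 TCA cycle genes 5 rose and 3 fell (median 0.23), 1 rose without either IL-2 + LDHi library, 3 and 2 without no-cytokine replicate 1 and 2, and 11 without either IL-21 library, and the 3 became 0 and 1 without IL-2 + LDHi replicate 1 and 2 and 1 without no-cytokine or IL-2 replicate 2. Idh3a, of the NAD-dependent isocitrate dehydrogenase, was called in each fit but that with a 1.5-fold minimum. It stood at 16.2 and 18.0, 27.4 and 28.6, and 22.9 and 21.6 RPKM (0.65, SE 0.10, adjusted p 0.00217). The malate-aspartate and glycerol phosphate shuttles, which also regenerate cytosolic NAD+, gave 3 of 12 higher and none lower (median 0.18), 0 without either IL-2 + LDHi library or no-cytokine replicate 2, 1 without no-cytokine or IL-2 replicate 1 or either IL-21 + LDHi library, and 6 without either IL-21 library. Fatty acid oxidation gave 2 of 23 in each direction (median -0.08), none without either IL-2 + LDHi library or no-cytokine replicate 2, 1 higher without no-cytokine replicate 1, 1 lower without IL-2 replicate 2, and 5 lower without either IL-21 library. The redox list gave 4 of 28 higher and 3 lower (median 0.05), with 2 higher without IL-2 + LDHi replicate 2 or no-cytokine replicate 1, 1 lower without IL-2 + LDHi replicate 1 and 5 lower without either IL-21 library. In it, Txnrd1, thioredoxin reductase, stood at 24.5 and 25.2 RPKM without cytokine, 56.5 and 56.7 with IL-2 + LDHi and 26.6 and 26.1 with IL-2, a direct difference of 1.06 (SE 0.11, adjusted p 0.000154). Hmox1, heme oxygenase, which macrophages also express, fell with both, at 7.71 and 13.9, 2.49 and 2.12, and 6.32 and 5.15 RPKM; the part of macrophages, whose summed markers are given above, was not tested.

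**Figure D5:**
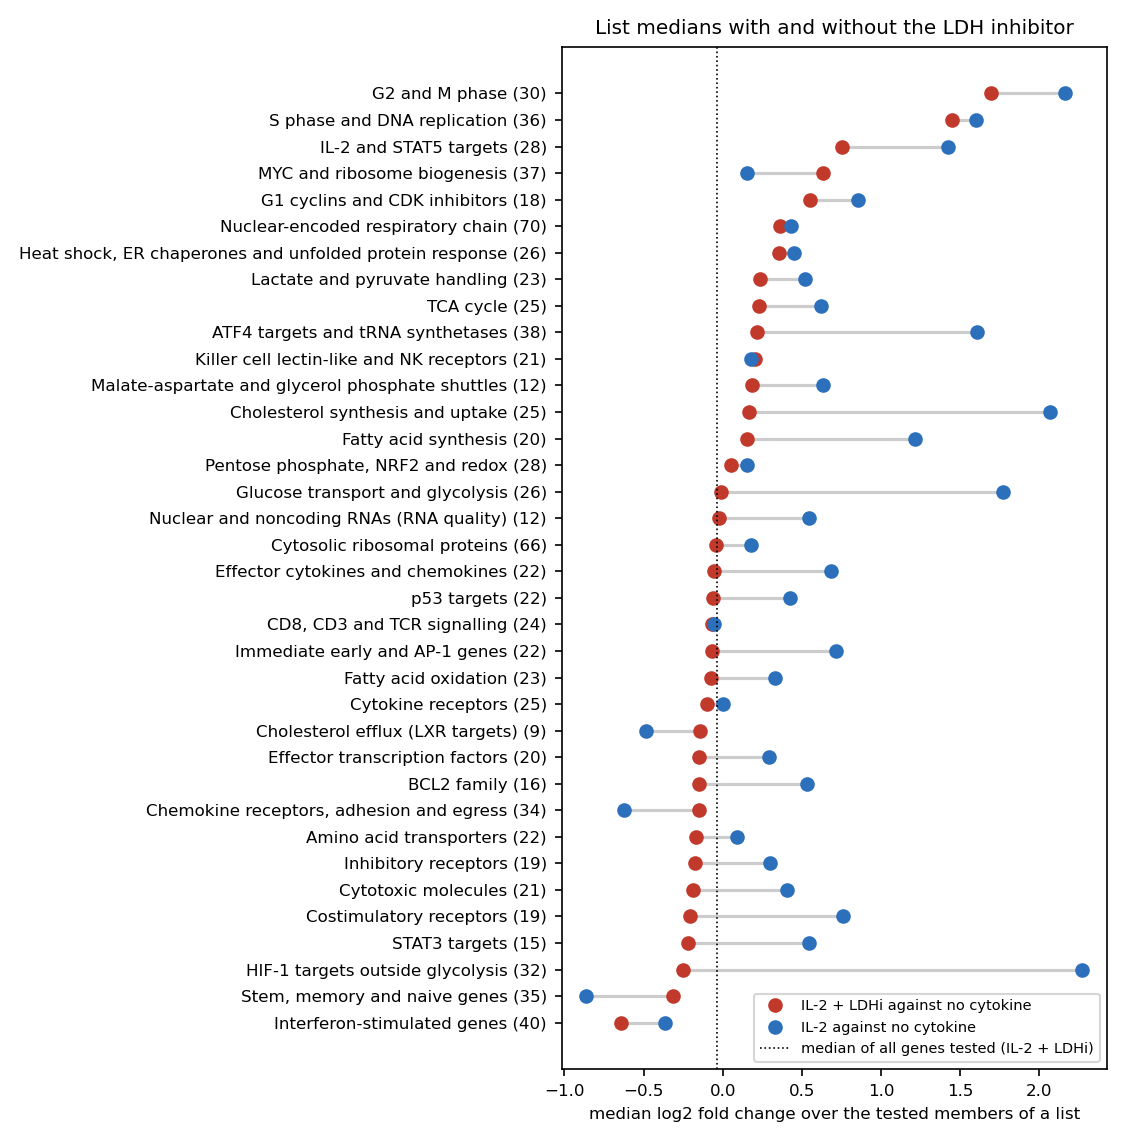
Median log2 fold change over the tested members of 36 gene lists (number of members in brackets), with IL-2 + LDHi (red) and IL-2 (blue), each against no cytokine; the dotted line is the median of all genes tested with IL-2 + LDHi, -0.03. The S phase and G2 and M phase medians are above 1.4 in both, and those of G1 cyclins and CDK inhibitors are 0.55 and 0.85. The widest gap is that of HIF-1 targets, from -0.25 with the inhibitor to 2.27 without.

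Effector genes were mixed. Of 21 cytotoxic molecules 4 rose and 4 fell with IL-2 + LDHi (median -0.19; IL-2, 11 and 6, median 0.41); 1 and 2 fell without IL-2 + LDHi replicate 1 and 2, and 7 without either IL-21 library. Gzmb, the main cytotoxic granzyme, stood at 22.2 and 13.3 RPKM without cytokine, 83.4 and 92.8 with IL-2 + LDHi and 1148 and 1027 with IL-2. It rose 4.76-fold with IL-2 + LDHi (log2 2.251, SE 0.24, adjusted p 0.000273) and by 5.92 in log2 with IL-2, and the direct difference was -3.67 (SE 0.26, adjusted p 2.04e-05). The 3 groups do not overlap, and the IL-2 + LDHi level is nearer that of no cytokine. Gzmc, another granzyme, was at 0.0190 and 0.0712, 2.08 and 1.96, and 2.87 and 2.94 RPKM, and its rise (5.43, adjusted p 0.00472) was lost without no-cytokine replicate 1 (adjusted p 0.05005), with 4 reads over the no-cytokine libraries. Fasl, the death ligand, was also between the other groups, at 1.09 and 0.928, 5.29 and 4.59, and 12.6 and 11.3 RPKM. Prf1, the pore-forming perforin, was at 11.9 and 10.3, 12.04 and 13.0, and 7.31 and 7.30 RPKM, not called with IL-2 + LDHi (0.12, 95% interval -0.13 to 0.36) and called lower with IL-2 (-0.62). Serpinb6b, an inhibitor of granzyme-like proteases, fell to below no cytokine, at 18.3 and 16.8, 8.75 and 9.07, and 89.1 and 113 RPKM.

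Among 22 effector cytokines and chemokines 7 rose and 4 fell (median -0.05; IL-2, 12 and 7, median 0.69); 2 fell without either IL-2 + LDHi library or without no-cytokine replicate 2. Tnf, Ifng and Tnfsf11 rose to levels near those with IL-2 alone. Tnf was at 2.80 and 3.19 RPKM without cytokine, 13.1 and 14.6 with IL-2 + LDHi and 15.7 and 11.9 with IL-2, with a direct difference of -0.04 (95% interval -0.49 to 0.41). Ifng, the type II interferon, was at 1.40 and 1.01, 4.24 and 4.25, and 3.35 and 4.36 RPKM, rising by 1.75 (SE 0.25, adjusted p 0.00124) with a direct difference of 0.10 (95% interval -0.44 to 0.64). Tnfsf11, the ligand RANKL, rose from 0.524 and 0.664 to 5.48 and 4.78 RPKM, against 3.70 and 4.56 with IL-2. In these 3 genes the cytokine groups overlap or adjoin, and both lie above no cytokine. The chemokine Ccl5 fell in both, at 336 and 171, 71.3 and 76.3, and 61.8 and 65.9 RPKM (-1.84 and -2.00). Of 22 immediate early and AP-1 genes 4 rose and 4 fell (median -0.07); without IL-2 + LDHi replicate 1 and 2, 2 and 1 rose and 1 and 2 fell, 2 rose without no-cytokine replicate 1, and 2 fell without no-cytokine replicate 2. Fosl2, an AP-1 subunit, rose from 0.996 and 0.998 to 2.43 and 2.48 RPKM, against 10.0 and 8.22 with IL-2.

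Cytokine receptors followed no common direction: of 25, among them the IL-2 receptor chains Il2ra and Il2rb given above, 6 rose and 4 fell with IL-2 + LDHi (median -0.10; IL-2, 8 and 7, median 0.00); 3 rose without either IL-2 + LDHi library, and 1 and 0 fell without IL-2 + LDHi replicate 1 and 2. Without no-cytokine replicate 1 or any IL-2 or IL-21 + LDHi library, 2 fell. Il12rb1 and Il18r1, receptor chains for IL-12 and IL-18, rose by 1.00 and 0.65 in log2 and stayed below IL-2 (-0.81 and -0.79). Il12rb2, the inducible IL-12 receptor chain, was at 10.8 and 7.28 RPKM without cytokine, 5.02 and 4.84 with IL-2 + LDHi and 91.0 and 112 with IL-2. It was called lower with IL-2 + LDHi (-0.93, adjusted p 0.0153), but not in 3 of the fits without 1 library (up to 0.106), and higher with IL-2 (3.47). Il6ra, the IL-6 receptor, went the other way: 17.02 and 20.1, 23.6 and 24.3, and 0.843 and 1.27 RPKM. With IL-2 its log2 fold change was -4.15, while with IL-2 + LDHi it was not called (0.31, 95% interval -0.12 to 0.73). Of 15 STAT3 targets 1 rose and 3 fell (median -0.22), against 9 and 3 with IL-2 (median 0.55), and the direct comparison called 3 higher and 10 lower (median -0.59). The 3 became 1 and 2 without IL-2 + LDHi replicate 1 and 2, and the 1 that rose became 2 without no-cytokine replicate 1.

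Effector transcription factors were mixed. Of 20, 4 rose and 5 fell (median -0.15), against 9 and 3 with IL-2 (median 0.29), and the direct comparison called 2 higher and 10 lower (median -0.63); 1 rose without either IL-2 + LDHi library and 2 without no-cytokine replicate 2. Batf3, an AP-1 family factor also known from dendritic cells, was at 7.20 and 3.58 RPKM without cytokine, 0.223 and 0.292 with IL-2 + LDHi and 15.8 and 18.4 with IL-2, a log2 fold change of -4.44 (SE 0.39, adjusted p 0.000105) beside 1.64 with IL-2. Batf3 is itself a member of the dendritic list, whose sum, Batf3 included, was lower than without cytokine in both IL-2 groups; the part of dendritic cells in its values was not tested. Prdm1, the effector repressor Blimp-1, was at 0.980 and 0.883, 1.14 and 1.03, and 3.76 and 2.95 RPKM and not called with IL-2 + LDHi (0.16, 95% interval -0.24 to 0.57) beside 1.83 with IL-2. Tbx21, T-bet, stood at 12.4 and 7.75, 8.78 and 9.40, and 12.8 and 14.1 RPKM, with overlap and no call (-0.21, 95% interval -0.73 to 0.32). Ikzf3, a lymphoid zinc finger factor, fell at 103 and 84.5, 53.4 and 53.2, and 30.6 and 32.7 RPKM.

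Of 35 stem, memory and naive genes 4 rose and 9 fell with IL-2 + LDHi (median -0.31), against 5 and 25 with IL-2 (median -0.86), and the direct comparison called 17 higher and 5 lower (median 0.48). Without IL-2 + LDHi replicate 1 or 2, 4 or 5 fell, and without either IL-21 library 16; 2 rose without either IL-2 + LDHi library or no-cytokine replicate 2. Tcf7, the TCF-1 factor of stem-like T cells, was at 602 and 424 RPKM without cytokine, 308 and 311 with IL-2 + LDHi and 186 and 212.6 with IL-2. The log2 fold changes were -0.79 (adjusted p 0.007; up to 0.0665 without either IL-2 + LDHi library, where the call was lost) and -1.38, and the direct difference was 0.60 (adjusted p 0.0162). Il7r, the IL-7 receptor, showed the same order without a call, at 147 and 188, 132 and 117, and 77.3 and 81.6 RPKM (-0.49, 95% interval -0.88 to -0.09). It was called lower without 1 or the other IL-21 library or no-cytokine replicate 1. Klf2, which keeps egress genes on, was at 130.0 and 98.0, 140.1 and 143, and 21.3 and 22.2 RPKM, with IL-2 far below the other groups; it was not called with IL-2 + LDHi (0.26, 95% interval -0.22 to 0.74; direct difference 2.66, adjusted p 5.32e-05). Ccr7, the lymph node homing receptor, was at 139.7 and 99.4, 125 and 132, and 127 and 114 RPKM, with overlap throughout. Myb, a stemness factor, fell with both, at 116 and 98.1, 15.6 and 16.2, and 21.0 and 22.6 RPKM (-2.81, SE 0.18, adjusted p 2.44e-05). Bcl6, a repressor that opposes Blimp-1, stood at 6.10 and 6.08, 2.01 and 2.03, and 4.02 and 4.22 RPKM and was lowest with the inhibitor (-1.65, SE 0.13, and -1.07 against IL-2). Igfbp4, an insulin-like growth factor binding protein, rose from 5.03 and 5.75 to 35.0 and 35.2 RPKM, against 27.5 and 19.6 with IL-2.

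Ctla4, Lag3 and Tigit, inhibitory receptors that rose with IL-2, fell with IL-2 + LDHi. Of 19 inhibitory receptors, 2 rose and 7 fell with IL-2 + LDHi (median -0.17), and 4 fell without either IL-2 + LDHi library or without no-cytokine replicate 2; with IL-2, 7 rose and 5 fell. The 2 that rose became 1 without either IL-2 + LDHi library, no-cytokine replicate 1 or any IL-2 or IL-21 + LDHi library. Ctla4, which competes with CD28 for its ligands, was at 69.7 and 51.3 RPKM without cytokine, 14.5 and 14.9 with IL-2 + LDHi and 188 and 192 with IL-2. The log2 fold change was -2.10 (SE 0.21, adjusted p 0.000201) with IL-2 + LDHi and 1.63 with IL-2, and the direct difference -3.73 (adjusted p 1.26e-05). Lag3, an MHC class II binding receptor, was at 8.82 and 5.08, 1.41 and 1.55, and 27.1 and 30.8 RPKM, and Tigit, which binds poliovirus receptor family ligands, at 13.8 and 10.8, 3.70 and 3.79, and 21.2 and 26.5. In all 3 the groups do not overlap and the inhibitor group is the lowest. Havcr2, TIM-3, fell from 1.24 and 1.86 to 0.391 and 0.290 RPKM with IL-2 + LDHi and was not called with IL-2 (0.21, 95% interval -0.38 to 0.79). The no-cytokine level of Havcr2, like the granulocyte marker sum, was higher in replicate 2, and the part of those cells was not tested. Of 19 costimulatory receptors 3 rose and 6 fell (median -0.20), and 1 rose without either IL-2 + LDHi library or no-cytokine replicate 2; 1 fell without IL-2 + LDHi replicate 1, none without IL-2 + LDHi replicate 2 or no-cytokine replicate 1 and 3 without IL-2 replicate 2. With limma on log2(RPKM + 1), 1 rose and 1 fell. Cd40lg, the CD40 ligand, rose from 0.965 and 1.19 to 4.09 and 3.77 RPKM, against 2.06 and 1.62 with IL-2.

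Of 34 chemokine receptor, adhesion and egress genes 6 rose and 8 fell with IL-2 + LDHi (median -0.15), against 7 and 18 with IL-2 (median -0.63); 5 fell without IL-2 + LDHi replicate 2. Among those that fell, Itgam and Itgax are myeloid and dendritic markers, and Itgb3 is also a platelet gene; the part of those cells was not tested. Itgb1, the β1 integrin chain, fell at 102 and 86.5, 47.9 and 44.9, and 61.4 and 63.5 RPKM (-1.08, SE 0.11, adjusted p 0.000198). Ccr2, an inflammatory homing receptor, rose with both, at 6.87 and 9.04, 31.4 and 29.5, and 29.95 and 24.0 RPKM (1.88 and 1.75). Itgae, the αE chain (CD103) of tissue-resident T cells, was at 17.5 and 12.8 RPKM without cytokine, 21.8 and 20.8 with IL-2 + LDHi and 1.44 and 1.53 with IL-2. It was not called with IL-2 + LDHi (0.44, 95% interval 0.07 to 0.80, adjusted p 0.0852), though it was called higher without no-cytokine replicate 1 or 1 of the IL-21 libraries and in a fit of 3 groups. It fell by 3.36 in log2 with IL-2 and differed directly by 3.80 (SE 0.18, adjusted p 7.32e-06). Itga1, the α1 chain (CD49a), also of tissue-resident cells, rose from 0.329 and 0.322 to 1.35 and 1.01 RPKM with IL-2 + LDHi and stood at 0.360 and 0.308 with IL-2 (direct difference 1.78, adjusted p 0.000795).

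A set of NK cell receptors was highest with the inhibitor. Of 21 killer cell lectin-like and NK receptors 8 rose and 4 fell with IL-2 + LDHi (median 0.21), against 6 and 5 with IL-2, and the direct comparison called 10 higher and 1 lower (median 0.77). The 8 became 4 and 5 without IL-2 + LDHi replicate 1 and 2, and the 4 became 1 without either of these and 2 without no-cytokine replicate 2. Ncr1, the activating receptor NKp46, was at 0.0728 and 0.242 RPKM without cytokine, 4.34 and 3.90 with IL-2 + LDHi and 0.124 and 0.0618 with IL-2. Its log2 fold change was 4.68 (SE 0.51, adjusted p 0.000285) against no cytokine and 5.42 (SE 0.54, adjusted p 0.000119) against IL-2. Klrb1c, NK1.1, stood at 0.485 and 0.396, 4.53 and 4.19, and 0.734 and 0.783 RPKM, and Klra1, a Ly49 receptor of a family of close paralogs whose reads may be split, at 1.56 and 1.62, 7.51 and 6.89, and 2.97 and 3.62. In these 3 genes IL-2 + LDHi is above both other groups. Tyrobp, the adaptor DAP12 shared with myeloid cells, fell, at 23.4 and 31.4, 5.28 and 6.53, and 1.28 and 1.73 RPKM. The 8 NK cell markers summed to 39.8 and 26.6 RPKM without cytokine, 53.01 and 53.7 with IL-2 + LDHi and 32.5 and 26.6 with IL-2; 5 of the 7 tested rose, 2 without either IL-2 + LDHi library and 3 without no-cytokine replicate 2. The part of NK cells in these values was not tested.

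Foxp3, the factor of regulatory T cells, rose with IL-2 + LDHi, at 0.259 and 0.168 RPKM without cytokine, 4.10 and 4.10 with IL-2 + LDHi and 0.488 and 1.23 with IL-2. The log2 fold change was 4.19 (SE 0.45, adjusted p 0.000248), with a direct difference of 2.21 (adjusted p 0.0025). The level remained far below that of Cd8a, which stood at 288 and 307 RPKM with IL-2 + LDHi. The CD4 and regulatory T cell list, of which Ctla4 is a member, summed to 113 and 83.1 RPKM without cytokine, 51.7 and 51.1 with IL-2 + LDHi and 241 and 246 with IL-2, with 2 of 9 higher and 3 lower (1 lower without either IL-2 + LDHi or either IL-2 library). The part of regulatory T cells was not tested.

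Interferon-stimulated genes were lower with the inhibitor. Of 40, none rose and 28 fell with IL-2 + LDHi (median -0.64), beside the 13.3% of all genes called lower, against 2 and 16 with IL-2 (median -0.37), and the direct comparison called 7 higher and 17 lower. The 28 became 8 and 12 without IL-2 + LDHi replicate 1 and 2, 16 without no-cytokine replicate 2, and 17 and 18 with limma on log2(RPKM + 1) and log2(RPKM + 0.1). Irf7, a master regulator of type I interferon, fell with both, at 23.0 and 22.1 RPKM without cytokine, 9.42 and 10.9 with IL-2 + LDHi and 8.97 and 8.79 with IL-2 (-1.20, SE 0.13, adjusted p 0.000261). Rsad2, the antiviral protein viperin, fell with IL-2 + LDHi, at 1.87 and 3.32, 0.214 and 0.274, and 2.08 and 2.11 RPKM, and was not called with IL-2 (-0.33, 95% interval -1.13 to 0.47). Isg15, a ubiquitin-like modifier, was at 5.66 and 6.27, 2.02 and 2.39, and 3.86 and 4.16 RPKM. For Rsad2 and Isg15 the inhibitor group lies below both others; for Irf7 both cytokine groups lie below no cytokine. These genes are expressed by myeloid cells as well as T cells, and the part of the fall in myeloid markers in these values was not tested.

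Among 16 BCL2 family genes 3 rose and 6 fell (median -0.15; 5 rose without either IL-21 library), against 7 and 1 with IL-2 (median 0.53), and the direct comparison called 1 higher and 6 lower (median -0.28). Beside Bcl2 and Bcl2l1, the other that rose was the pro-apoptotic Bcl2l11. The A1 genes fell: Bcl2a1b was at 17.9 and 15.6 RPKM without cytokine, 7.64 and 7.31 with IL-2 + LDHi and 16.2 and 18.6 with IL-2 (-1.22, SE 0.14, adjusted p 0.000394), though the A1 copies are near-identical and the authors' counting may split their reads. The nuclear and noncoding RNAs used as a sign of RNA quality gave 2 of 12 higher and 1 lower (median -0.02; 1 higher without either IL-2 + LDHi library, no-cytokine replicate 1 or either IL-21 + LDHi library, and none lower without any no-cytokine, IL-2 or IL-2 + LDHi library), and their sum was 553 and 558 RPKM without cytokine and 566 and 549 with IL-2 + LDHi. With IL-2 the sum was 708 and 761 RPKM, 5 were higher and 3 lower than without cytokine (median 0.55), and the direct comparison called 2 higher and 5 lower (median 0.02); the part of RNA quality in the values of IL-2 was not tested.

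Drc1, S100a4 and Sytl2 were among the 12 genes with the largest rises and belonged to no list. Drc1, a subunit of the ciliary nexin-dynein regulatory complex, was at 0.0313 and 0.00978 RPKM without cytokine, 18.7 and 21.3 with IL-2 + LDHi and 3.71 and 5.51 with IL-2. The log2 fold change of Drc1 was 9.72 (SE 0.45, adjusted p 1.34e-05), with 5 reads over the no-cytokine libraries and 4992 over the IL-2 + LDHi libraries, and the direct difference from IL-2 was 2.08 (SE 0.27, adjusted p 0.000442). S100a4, a calcium-binding protein of activated and memory T cells, was at 19.1 and 18.0, 124 and 126, and 44.1 and 39.1 RPKM (2.69 and 1.15 against no cytokine, and 1.54 between the IL-2 groups, adjusted p 0.00113). Sytl2, a synaptotagmin-like protein of granule secretion, was at 1.85 and 1.38, 8.71 and 8.30, and 11.1 and 11.02 RPKM. Mxd3, of the MAX dimerisation family that opposes MYC, was at 3.31 and 1.77, 13.0 and 16.2, and 10.7 and 8.60 RPKM. Drc1 and S100a4 were thus highest with the inhibitor, with no overlap between the groups. The rule that picked them required no overlap with no cytokine, but set no condition on IL-2.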

How the data were processed

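RNA-seq libraries of 10 samples, 2 per group, were deposited as 1 table each. Per the file headers, each table lists, for 31682 RefSeq transcripts, the authors' raw read counts and the authors' RPKM; the submitters' processing notes name build mm10, Bowtie2 2.2.6, TopHat2 (given as 2.2.1), SAMtools 0.1.8, bedtools 2.25.0 and edgeR, while strandedness of the counting is not stated. Each of 23992 symbols was represented by its transcript with the highest total read count. Depth after this step was 41035042 and 31190910 reads without cytokine and 46656183 and 36430058 with IL-2 + LDHi; depth limits the precision of genes with few reads. Differences were tested in R 4.3.3 with edgeR 4.0.16 (TMM, filterByExpr with a minimum count of 10 and total of 15, quasi-likelihood fit of the 5 groups without a replicate block, Benjamini-Hochberg adjustment over 14357 genes, adjusted p under 0.05). The common biological coefficient of variation was 0.171. Fold changes on the log2 scale are edgeR's, and intervals are 95%. Fits were tested on simulated data. Alternatives were RLE scaling, library size alone, DESeq2 1.42.0, no filter, an RPKM minimum of 5, limma 3.58.1 on log2(RPKM + 1) and log2(RPKM + 0.1), fits of 3 or 2 groups, the longest transcript, a replicate block, a 1.5-fold minimum and each library left out.

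The 43 gene lists (1079 entries, 1048 tested), the members and the tests were chosen with earlier results of these data known. Genes were named by rule: the 12 largest called changes in each direction without overlap, at a mean of at least 5 RPKM in the higher group and with no predicted or receptor-segment symbol, up to 4 members of each list with the smallest p, and 17 fixed genes. Tnfrsf9, Tnfrsf18, Tnfrsf4, Socs3, Nfil3, Il2rb, Myc, Pcna, Hmgcs1, Srebf2, Asns, Bnip3, Il12rb2, Ccl5, Klf2, Il6ra, Cd8a, Cd3e, Isg15, Ccr2, Itga1, Slc2a3, Scd1 and Mxd4, and the list members named only by symbol, were added after their values were seen. Promoter sequences came from RefSeq. Some genes that the rule selects are not reported here.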

Additional observations from a re-analysis of the deposited data

How the results depend on the processing

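Each group held 2 libraries, too few to look for an outlying library, and depth limits the precision of genes with few reads. Genes called higher and lower in the main comparison (1559 and 1913) became 466 and 1011 with a minimum of 1.5-fold, and 1013 were lower at an RPKM of at least 5. With IL-2 against no cytokine (3681 and 3566), an RPKM of at least 5 gave 2243 and 2241, and 1.5-fold 1946 and 1864. For IL-2 + LDHi against IL-2 (2557 and 3100), a fit of those 2 groups alone gave 4380 and 4689, 1.5-fold 830 and 1574, and an RPKM of at least 5 gave 1810 lower. Without 1 library, the ranges were 673 to 2389 higher and 882 to 2803 lower in the main comparison, 2597 to 4419 and 2359 to 4492 for IL-2, and 1350 to 3461 and 1718 to 3865 between the IL-2 groups. The cause of the shifts without 1 library or with 2 groups alone was not tested. The 1.5-fold minimum asks for a larger change than the main test, and the RPKM minimum changes which genes are tested. The counts over all genes under the other alternatives stayed within 1.5 times. No named gene changed sign where it was called in the main fit or in the alternative. Some that were called in neither, such as Hk2 and Tbx21, did change sign. Counts within the lists were less steady: 405 moved by more than 1.5 times under an alternative and 1487 did not. Scaling by library size alone moved the median log2 fold change of all genes to -0.06 in the main comparison, to -0.17 for IL-2 against no cytokine (2996 higher, 4333 lower) and to 0.13 between the IL-2 groups (3308 higher, 2564 lower). Of 216 named genes, 182 were called in the main comparison. Of these, 124 were called in each of the 10 fits without 1 library, 52 were lost without IL-2 + LDHi replicate 1 or without replicate 2, 34 and 30 without no-cytokine replicate 1 and 2, 67 with the 1.5-fold minimum and 31 with limma on log2(RPKM + 1). A replicate block gave 1477 higher and 1874 lower in the main comparison, 3665 and 3553 for IL-2, and 2550 and 3063 between the IL-2 groups; in the B cell list it called 5 lower, where the fit without the block called 0. Over the pairs of groups, the correlation of same-numbered deviations ran from -0.15 to 0.48, the highest between no cytokine and IL-21 and -0.03 between no cytokine and IL-2 + LDHi, so the numbers were not taken to pair the libraries.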
